A study of Mus musculus with 4 samples.

Results

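Strong unlinked regions are accessible sites that the deposited table ties to no gene and that carried a high signal in both wild type libraries. They were taken from ATAC-seq, in which Tn5 transposase cuts open DNA, of quiescent satellite cells, the stem cells of skeletal muscle. A region was a member when its gene entry was empty, it lay on an autosome, and its value was at least 200 scaled reads in wild type replicate 1 and in wild type replicate 2. This left 817 members among 35019 regions in all, or among 19660 autosomal regions with no deposited gene. One set of cells came from mdx mice, a strain whose mutant dystrophin gene makes it a model of Duchenne muscular dystrophy, and the other from wild type mice. The sources used here do not give strain background, age or sex, and both groups share the sorting of living cells and the Tn5 step. Each group had 2 libraries, numbered 1 and 2 in their titles, whereas the design text speaks of 3 mice per condition. Because nothing ties a library to an animal, the spread between libraries may be technical.

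An enhancer is a stretch of DNA, often inside an intron or between genes, where transcription factors displace nucleosomes and raise the activity of a promoter that may lie far away. Open chromatin away from gene starts is where enhancers are found, together with insulators and start sites missing from an annotation, so accessibility alone makes a region a candidate and no more. In satellite cells the paired box factor Pax7 marks the lineage, and Notch signals relayed to DNA by Rbpj, with the calcitonin receptor Calcr, are known to keep the cells quiescent.

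The empty gene entry did not mean that a member lay away from genes. Against RefSeq positions on the same build (GRCm38, mm10), 102 members (12.5%) lay within 1 kb of a known start of a coding gene or a long non-coding RNA (lncRNA), compared with 3.59% of the other 18843 unlinked autosomal regions. Of these gene-start members, 78 were at coding genes and 24 at lncRNA genes. A further 357 members (43.7%) were inside a gene body and 345 (42.2%) between genes, against 53.3% and 42.0% of the other unlinked regions. The remaining 13 lay at the end of a gene whose strand was not known. Regions at gene starts or such ends were set apart first. Counted whatever their class, 457 members (55.9%) were inside a gene body, against 57.1% of the other unlinked regions. Distances to the nearest start were similar, with a median of 21.5 kb in members and 24.9 kb in the other unlinked regions, and 96 members (11.8%) were over 100 kb from any start. Members were wider, with a median of 678 bp against 273 bp, which a threshold on reads per region favours.

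A RefSeq promoter sequence was at hand for 88 members that hold the start itself, and the 250 bases before that start were read for each. These windows were richer in G and C than promoters in general, with a median of 64.6% against 52.4% over all 32851 windows of that length and 64.8% over the 2677 windows in linked regions past the same threshold. The ratio of observed to expected CpG was at least 0.6 in 57 of the 88 windows (64.8%), in 34.0% of all windows, likewise 34.0% of those in other unlinked regions, and in 86.1% of those in the strong linked regions. The windows of the 6 gene-start members that were called lower in mdx, as described further on, are shown because these are the gene starts that passed the test, and that of Ankef1 because it had the highest log2 difference among coding starts. They were chosen after their values were seen. Capitals mark matches, on either strand, to any of 14 short motifs. Read 5′ to 3′ towards the gene from RefSeq GRCm38.p6, they are the following.
Rbpj: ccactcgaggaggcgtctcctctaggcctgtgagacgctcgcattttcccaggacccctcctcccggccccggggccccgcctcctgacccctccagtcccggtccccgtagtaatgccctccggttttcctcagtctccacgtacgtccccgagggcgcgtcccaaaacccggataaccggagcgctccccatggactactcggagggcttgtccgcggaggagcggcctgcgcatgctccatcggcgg
Gm34267: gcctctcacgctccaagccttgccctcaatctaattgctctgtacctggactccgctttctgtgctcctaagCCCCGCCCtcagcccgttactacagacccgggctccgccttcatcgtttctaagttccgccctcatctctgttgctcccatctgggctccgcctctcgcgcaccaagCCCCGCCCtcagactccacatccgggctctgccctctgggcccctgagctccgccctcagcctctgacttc
A130010J15Rik: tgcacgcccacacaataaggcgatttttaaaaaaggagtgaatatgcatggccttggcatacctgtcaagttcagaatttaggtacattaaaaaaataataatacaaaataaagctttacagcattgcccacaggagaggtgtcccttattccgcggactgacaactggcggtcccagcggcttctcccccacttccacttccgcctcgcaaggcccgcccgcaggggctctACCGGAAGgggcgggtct
Gm34507: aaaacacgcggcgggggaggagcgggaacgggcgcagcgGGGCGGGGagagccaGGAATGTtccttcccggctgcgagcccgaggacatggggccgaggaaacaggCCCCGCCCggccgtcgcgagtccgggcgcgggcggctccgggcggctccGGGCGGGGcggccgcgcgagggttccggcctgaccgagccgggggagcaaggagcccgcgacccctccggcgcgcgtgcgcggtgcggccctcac
Atf3: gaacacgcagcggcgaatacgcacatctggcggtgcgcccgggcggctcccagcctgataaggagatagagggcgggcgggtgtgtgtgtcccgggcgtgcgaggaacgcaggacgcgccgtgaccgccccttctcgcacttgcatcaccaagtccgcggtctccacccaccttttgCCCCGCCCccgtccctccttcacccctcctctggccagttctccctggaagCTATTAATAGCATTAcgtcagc
Hif1a: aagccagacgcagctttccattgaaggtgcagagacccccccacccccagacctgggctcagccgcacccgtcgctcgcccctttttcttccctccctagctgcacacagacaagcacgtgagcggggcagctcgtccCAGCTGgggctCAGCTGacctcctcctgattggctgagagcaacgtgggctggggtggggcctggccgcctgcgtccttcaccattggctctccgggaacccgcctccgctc
Ankef1: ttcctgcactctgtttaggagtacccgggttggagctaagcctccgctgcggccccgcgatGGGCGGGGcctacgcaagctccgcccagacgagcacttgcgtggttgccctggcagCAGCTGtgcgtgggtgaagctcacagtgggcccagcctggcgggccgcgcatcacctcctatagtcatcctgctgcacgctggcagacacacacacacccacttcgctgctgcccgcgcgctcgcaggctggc

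These windows lie at chr5:53590236-53590485 on the plus strand for Rbpj, chr10:22058655-22058904 on the minus strand for Gm34267, chr1:193173219-193173468 on the plus strand for A130010J15Rik, and chr17:4908072-4908321 on the plus strand for Gm34507. For Atf3 the window is chr1:191183334-191183583 on the minus strand, for Hif1a chr12:73907617-73907866 on the plus strand, and for Ankef1 chr2:136532071-136532320 on the plus strand. The promoter table gives 2 starts of Rbpj, both inside the member, and the window is that of the start nearer to the member's centre. It is all in lower case because none of the 14 motifs matched, which says only that these letters are not in this window. In Gm34267 the capitals are 2 copies of the SP/KLF motif GGGCGGGG on the opposite strand. A130010J15Rik has 1 ETS motif, ACCGGAAG, at bases 233 to 240. Gm34507 has SP/KLF motifs at bases 40, 107 and 156 and the TEAD motif GGAATGT at base 55. Atf3 has an SP/KLF motif at base 178, and a MEF2 motif at bases 229 to 238 that overlaps a paired homeodomain motif at bases 233 to 243. Hif1a has 2 copies of the muscle-type E-box CAGCTG, at bases 139 and 150. Ankef1 has an SP/KLF motif at base 62 and an E-box at base 118.

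Over the 88 windows, 52 held at least 1 of the 14 motifs and 36 held none. SP/KLF was found in 33 (37.5%), against 16.1% of all RefSeq windows, 22.7% of those in other unlinked regions and 42.7% of those in strong linked regions. The AP-1 motif TGANTCA was found in 9 windows (10.2%), against 6.75% of all windows, 9.04% of the 365 windows in other unlinked regions and 2.84% in strong linked regions. Those 9 were at Fam214b, Tank, Sgms2, Gatad2a, Creb5, Zfp869, Palld, Dhcr7 and Sgms1, and their log2 differences ran from -0.77 to 0.22. E-boxes were in 11 windows (12.5%, against 13.0% of all), ETS in 4 (4.55% against 1.72%), the CTCF core in 5 (5.68% against 2.08%), MEF2 in 3 (3.41% against 3.20%) and TEAD in 3 (3.41% against 3.25%). In windows of strong linked and of other unlinked regions, E-boxes were in 10.8% and 19.5%. There ETS was in 2.99% and 0.822%, and the CTCF core in 4.45% and 4.38%. NRF1 was in 2 windows (2.27% against 0.782%), and RUNX (TGTGGTNA, against 3.66%) and the paired homeodomain motif (against 0.463%) in 1 each (1.14%). CRE (TGACGTCA, 1.55% of all windows), STAT (TTCCNGGAA, 0.913%) and the NFI motif (0.0365%) were found in 0 of the 88. Each match is a description of letters, and the members away from starts are not covered by it, since their sequence was not at hand.

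After undoing the authors' scaling, the listed regions held 3208372 and 3607567 reads in mdx, against 3693284 and 8164582 in wild type. A value of 200 then stands for 145 and 172 reads in mdx, against 164 and 406 reads in wild type, so counting alone gives it an error of 8.31% and 7.62% in mdx, against 7.82% and 4.96% in wild type. Promoter regions of satellite cell markers were present for 6 of 10 genes (with 0 regions at Calcr, Cdh15, Itga7 and Vcam1), and summed to 1470 and 1385 scaled reads in mdx, against 1484 and 1520 in wild type. Fibro-adipogenic markers (4 of 7 genes) summed to 206 and 227 in mdx against 113 and 152 in wild type, and myofibre markers (2 of 6, with 0 regions at Acta1 and Ckm) to 184 and 180 in mdx against 68 and 104 in wild type. Endothelial markers (1 of 6) gave 152 and 131 in mdx against 131 and 146 in wild type, and immune markers had 0 regions for 7 genes, so Ptprc and Cd68 have no value here. The part of these other cells in the differences below was not tested, and fewer cells of a type and less open chromatin per cell cannot be told apart in a bulk library. Regions with a deposited gene held 59.7% and 63.9% of the autosomal signal in mdx, against 70.4% and 67.5% in wild type.

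As a set, strong unlinked regions had similar levels in mdx and in wild type on the deposited scale. The median member had 330 and 314 scaled reads in mdx, against 310 and 304 in wild type, or per kilobase of region 491 and 461 in mdx and 472 and 467 in wild type. Members together held 8.43% and 8.04% of the autosomal signal in mdx and 7.79% and 8.01% in wild type. Both mdx shares were above both wild type shares, the nearest by a narrow margin. The median log2 difference, mdx minus wild type on log2(value + 1), was -0.004, with quartiles of -0.27 and 0.26. It was -0.01 over all 33161 regions tested. With the medians of unlinked regions set equal the median of members was -0.35, as in all tested regions. After cyclic loess it was 0.14 in members, against -0.025 in all tested regions.

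Most members kept a high level. In mdx, 686 of 817 (84.0%) were at 200 or more in both libraries, 719 in replicate 1 and 725 in replicate 2. With the mean of the mdx libraries taken as a percentage of the wild type mean, the median member kept 99.7%, the quartiles were 82.8% and 120%, and 681 (83.4%) between 70% and 150%. Only 3 kept less than 50%, and 1 reached 200% or more, with extremes of 35.0% and 204%. The values chosen on were part of this ratio, so none of it is a test.

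**Figure D1:**
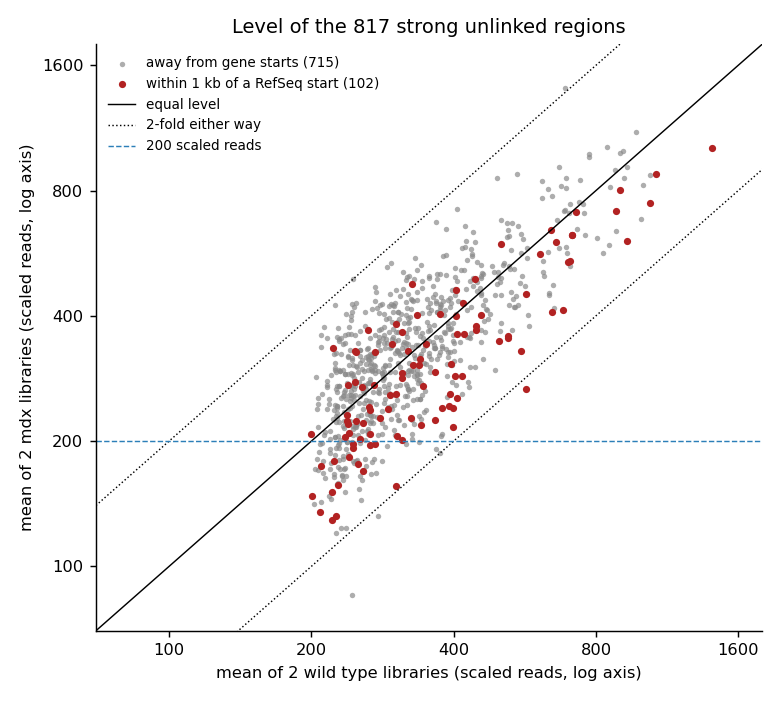
Mean of the 2 mdx libraries (vertical) against the mean of the 2 wild type libraries (horizontal) for each of the 817 strong unlinked regions, in scaled reads on log axes. Members at gene starts (red) lie mostly below the line of equal level, and members away from them (grey) lie on both sides of it.

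The size of the difference between groups was set beside the difference between libraries of a group. The median absolute difference was 0.27 log2 units between the groups, 0.19 within the mdx pair and 0.17 within the wild type pair, whose spread the rule limits. Over all tested regions these were 0.41, 0.35 and 0.33. Both mdx values were above both wild type values in 248 members (30.4%, against 26.8% of all tested regions), and both were below in 256 (31.3%, against 25.9%). In the other 313 (38.3%) the groups overlapped. All 817 members passed the filter on low values, and limma, with Benjamini-Hochberg adjustment over the 33161 regions and a threshold of 0.05, called 14 higher in mdx (1.71%, against 3.3% of all tested regions) and 13 lower (1.59%, against 0.881%). The rule used the wild type side of this contrast, so nothing is read from these shares. The split of calls turned with the scaling, in members and in all regions tested. With the medians of unlinked regions set equal, 1 member was called higher and 137 lower, beside 1200 and 3432 of all regions tested. After cyclic loess the counts were 102 and 13 in members, beside 1704 and 541 of all regions tested. With each library left out in turn, the median log2 difference of members ran from -0.044 to 0.051. Across the 817 members, log2 values correlated at 0.889 within the mdx pair and at 0.879 within the wild type pair, and at 0.607 to 0.83 in pairs across the groups. These are correlations over regions that share a library and a lower limit in wild type.

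A choice made on high wild type values lowers the wild type side once it is measured again, so the members were also drawn in ways that leave a wild type library out. With 200 or more in wild type replicate 1 alone, 1006 unlinked autosomal regions qualified, and their median log2 difference between mdx and wild type replicate 2 was 0.01. With the choice on wild type replicate 2, 1007 regions qualified, and mdx differed from wild type replicate 1 by a median of 0.08. In the first draw 78.8% and 77.4% of the regions were at 200 or more in the mdx libraries and 81.2% in the wild type library left out. In the second draw these shares were 87.2% and 86.4% in mdx and 81.1% in wild type. The mdx shares were thus below the left-out wild type library in one draw and above it in the other.

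The difference moved with the level in both draws. Between 100 and 200 scaled reads in the library used for the choice, the median log2 difference was 0.14 in the first draw and 0.19 in the second. At 200 to 300 it was 0.05 and 0.17, and at 300 to 500 it was -0.02 and 0.02. At 500 or more it was -0.08 over 113 regions and -0.10 over 96 regions, with both mdx libraries on the same side of 0 in each draw. Members followed the same order, with medians of 0.05 for 387 members with a wild type mean of 200 to 300 and -0.04 for 321 at 300 to 500. The median was -0.14 for 109 at 500 or more, a value that cyclic loess, which removes a trend with level, turns to 0.11. The wild type values that the rule used set these bins and enter the difference. The order among members is thus partly built in and is only a description. Gene starts made up 10.3%, 12.5% and 20.2% of these bins.

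**Figure D2:**
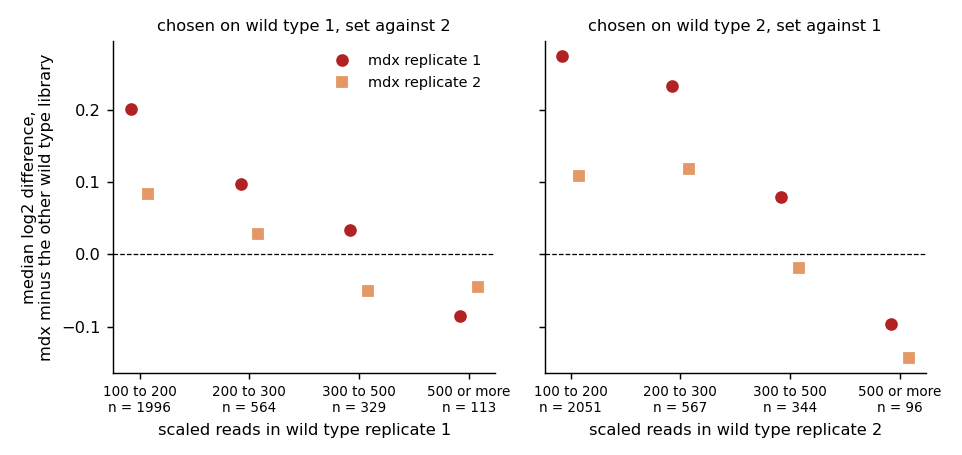
Median log2 difference between each mdx library and the wild type library that did not choose the regions (vertical), by the level in the wild type library that did (horizontal, scaled reads), for unlinked autosomal regions. In each panel both mdx libraries fall from above 0 at 100 to 200 scaled reads to below 0 at 500 or more.

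The same rule turned round, at 200 or more in both mdx libraries, picked 1079 regions. The 686 regions that passed both rules are 63.6% of the mdx list and 84.0% of the wild type list. Regions picked only on mdx, 393 of them, had medians of 274 and 234 scaled reads in mdx, against 156 and 184 in wild type. Regions with a deposited gene and 200 or more in both wild type libraries, 3643 in number, had a median log2 difference of -0.28, with 3100 (85.1%) below 0, whereas 412 of the 817 strong unlinked regions (50.4%) were below 0. The other tested unlinked regions had a median of 0.24.

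**Figure D3:**
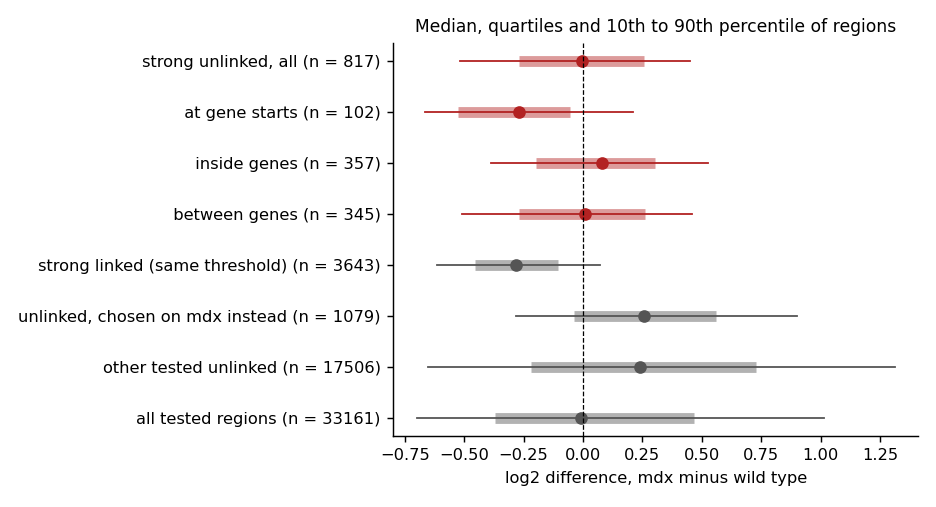
Log2 difference, mdx minus wild type, in strong unlinked regions and their subgroups (red) and in other groups of regions (grey): the dot is the median, the thick bar the quartiles and the thin line the 10th to 90th percentile of regions. Members at gene starts and strong linked regions have medians of -0.27 and -0.28, and members inside and between genes have medians of 0.08 and 0.01.

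Position split the members. At gene starts 81 of 102 had a log2 difference below 0, with a median of -0.27, against a median of 0.04 in the 715 other members, of which 331 were below 0. The median at gene starts was -0.61 to -0.12 under the other 3 scalings tried (equal autosomal totals, equal medians of unlinked regions and cyclic loess), while that of the other members turned to -0.31 with the medians of unlinked regions set equal. Coding starts had a median of -0.32 and lncRNA starts of -0.11. Both mdx libraries were below both wild type libraries in 61 gene-start members (59.8%, against 25.9% of all tested regions) and above them in 13 (12.7%, against 26.8%). The call of limma was lower for 6 of the 102 (5.88%, against 0.881%) and higher for 0 (against 3.3%). At an unadjusted p under 0.05 the counts were 33 lower and 3 higher, where 9.15% of all tested regions were lower and 13.8% higher. The rule used this contrast, so these shares are a description. They were not particular to these members, since the 3643 strong linked regions, chosen by the same threshold, leaned the same way. Among those, both mdx libraries were below in 2227 and above in 227, and limma called 126 lower and 5 higher. Gene starts took 11.3% and 12.3% of the members' signal in mdx, against 14.7% and 13.6% in wild type. These shares do not overlap. The exact two-sided permutation test over the 4 libraries gave p = 0.333, the smallest that 2 against 2 allows, so it cannot decide whether they differ. The rule also chose on the wild type values in these shares, and nothing is read from the test. In the 2 draws on a single wild type library, gene-start regions differed from the left-out library by -0.15 and -0.27 and the other regions by 0.05 and 0.12. Windows with a CpG ratio of at least 0.6 had a median difference of -0.32, and the 31 windows below it one of -0.15. The share of signal in regions with a deposited gene, given above, moved the same way, and its part in this split was not tested.

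The 6 gene-start members called lower include 3 genes with well known roles. Rbpj, the DNA-binding partner of activated Notch, had 240 and 293 scaled reads in mdx against 649 and 486 in wild type at chr5:53590079-53590806, a log2 difference of -1.08. Hif1a, which drives the response to low oxygen, had 402 and 425 in mdx against 728 and 635 in wild type (-0.72). Atf3, a stress-induced factor of the AP-1 and CREB group, had 249 and 232 in mdx against 414 and 382 in wild type (-0.72). In all 3 the gap between the groups was wider than the spread within either. A130010J15Rik had 207 and 225 in mdx against 469 and 330 in wild type, the lncRNA gene Gm34267 had 134 and 178 in mdx against 347 and 256 in wild type, and the lncRNA gene Gm34507 had 293 and 364 in mdx against 614 and 494 in wild type.

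Further gene-start members, chosen after their values were seen for what their genes are known to do, were not called. Runx1, a transcription factor of blood and muscle repair, had 133 and 137 in mdx against 217 and 200 in wild type. Satb1, an organiser of chromatin loops, had 140 and 124 in mdx against 250 and 200 in wild type. Sirt1, a deacetylase dependent on NAD, had 337 and 402 in mdx against 474 and 417 in wild type. Mbnl1, a splicing regulator of muscle, had 517 and 561 in mdx against 733 and 661 in wild type. In these 4 genes every mdx value was below every wild type value, which also held in 59.8% of gene-start members and 25.9% of all tested regions. Since they were picked with their values known, nothing is read from that count. The highest differences at coding starts were at Ankef1, with 496 and 459 in mdx against 297 and 355 in wild type, and at Prss23, a serine protease, with 328 and 331 in mdx against 215 and 279 in wild type. Neither was called. Rxrg, a retinoid receptor, had 431 and 301 in mdx against 318 and 303 in wild type, and there the groups overlapped.

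Of the 10 members with the highest wild type mean, 4 were at gene starts. Dcun1d4, whose product takes part in the neddylation of cullins, had the highest, with 914 and 1114 in mdx against 1583 and 1236 in wild type. The start of Cdyl, a chromodomain corepressor, had 550 and 660 in mdx against 1018 and 842 in wild type. At Sertad2 the values were 850 and 907 in mdx against 1184 and 957 in wild type, and at St3gal1, a sialyltransferase, 709 and 788 in mdx against 1259 and 827 in wild type. All 4 had both mdx values below both wild type values, as did 59.8% of gene-start members and 25.9% of all tested regions. The 10 were ranked on the wild type values that the rule used. Lower mdx values among them are thus partly built in and are only a description. A region 2.43 kb from the lncRNA Gm41308 and 16.6 kb from Azin1, a regulator of polyamine synthesis, had 644 and 720 in mdx against 1088 and 909 in wild type. It was 1 of 3 members whose nearest coding gene is Azin1, and their log2 differences ran from -0.60 to -0.55. Sema6d held a region with 796 and 855 in mdx against 1110 and 897 in wild type, and Spaca6 one with 886 and 827 in mdx against 927 and 905 in wild type. In Enox1, with 984 and 762 in mdx against 1114 and 971 in wild type, and in Gm29992, with 889 and 934 in mdx against 944 and 921 in wild type, the groups overlapped. Ddc, which encodes aromatic amino acid decarboxylase, was the 1 region of the 10 where both mdx values, 1095 and 1115, were above both wild type values, 963 and 980.

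**Figure D4:**
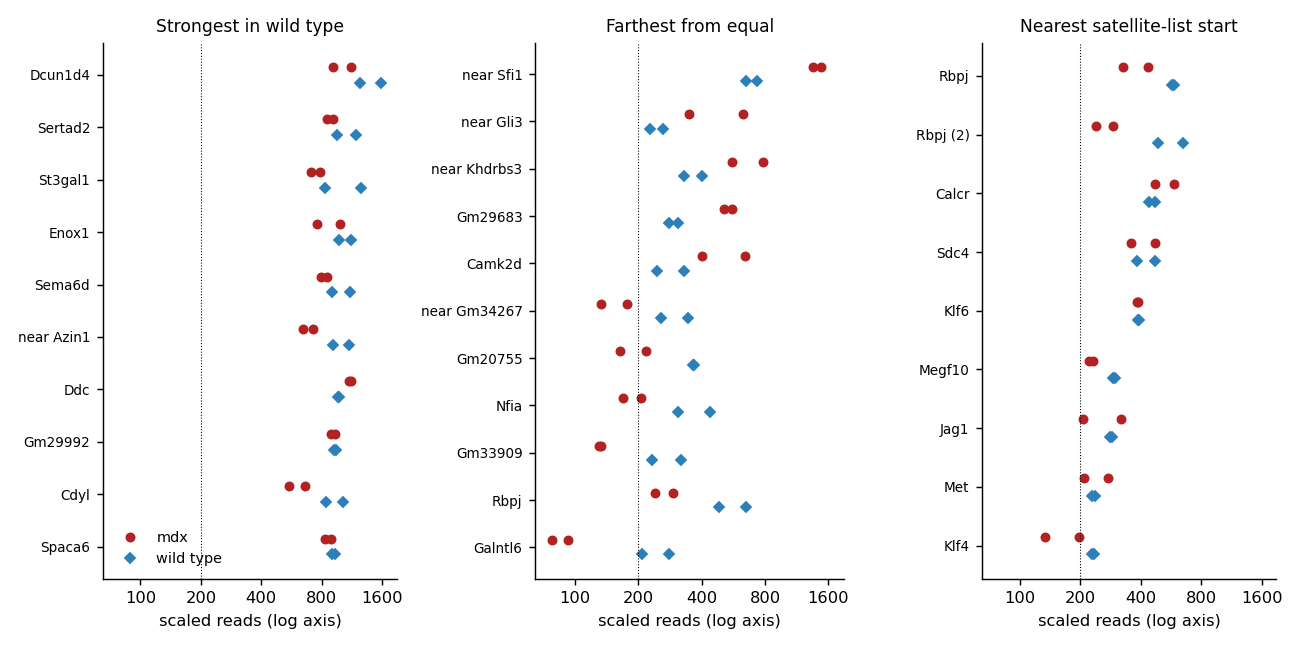
Scaled reads (log axis) of each mdx library (circles) and each wild type library (diamonds) for the 10 members strongest in wild type, 11 members among those farthest from equal by the ratio of means, with groups that do not overlap, and 9 members whose nearest RefSeq start is of a satellite cell gene. Rows carry the gene around the region, or else the nearest one, and in the right panel the gene of the nearest start, and the dotted line is at 200 scaled reads. The middle panel runs from regions higher in mdx at the top to regions lower in mdx at the bottom.

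The lowest member in mdx was inside Galntl6, a glycosyltransferase gene, at chr8:58025203-58026060. It had 93 and 78 scaled reads in mdx against 208 and 280 in wild type, a log2 difference of -1.49 that kept 35.0% of the wild type mean. The other 3 members in that gene body differed less, and the median of the 4 was -0.26. Nfia, which encodes a factor of the nuclear factor I family, held 3 members. The one at chr4:97772130-97772569 had 169 and 206 in mdx against 439 and 309 in wild type and was called lower, one had 209 and 205 in mdx against 238 and 263 in wild type, and one had 287 and 323 in mdx against 246 and 296 in wild type, where the groups overlapped. A region at chr15:98181142-98181612, by the lncRNA Gm33909, had 134 and 130 in mdx against 319 and 234 in wild type. Inside the lncRNA Gm20755 the values were 164 and 218 in mdx against 368 and 366 in wild type. Apart from those other members in Galntl6 and Nfia, these regions were called lower by limma.

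At the other end lay a region of 4318 bp at chr11:3100427-3104745, 29.3 kb from the nearest coding gene, Sfi1, with 1347 and 1468 in mdx against 649 and 730 in wild type (1.03). It is 1 of 2 members of at least 2000 bp, the other being 9159 bp wide. A region 6.33 kb from Khdrbs3, an RNA-binding protein gene, had 784 and 559 in mdx against 331 and 402 in wild type. In the lncRNA Gm29683, 84.7 kb from the orphan receptor gene Nr2f2, the values were 514 and 557 in mdx against 281 and 309 in wild type. At 11.9 kb from Gli3, a zinc finger factor of Hedgehog signalling, they were 629 and 350 in mdx against 227 and 264 in wild type, and inside Camk2d, a calcium-dependent kinase gene, 644 and 402 in mdx against 247 and 330 in wild type. The region at Gli3 and that in Camk2d, whose mdx libraries were far apart, were not called. All 14 members called higher lay inside genes (6) or between them (8), kept 155% to 204% of the wild type mean, and had adjusted p-values in limma of 0.00528 to 0.046.

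Genes of satellite cell identity and niche were the nearest start of 11 members (1.35%, against 0.621% of all unlinked autosomal regions). Of these 11, 9 were below 0, 7 had both mdx values below both wild type values and 0 had them above (25.9% and 26.8% of all tested regions), and 1, at Rbpj, was called lower (0.881% of all tested regions). Their median log2 difference was -0.38, beside -0.004 in all members and -0.01 in all tested regions, and it was -0.72 to -0.27 under the other 3 scalings. A second Rbpj region, centred 1.11 kb before the Rbpj start whose window is not shown above, had 325 and 433 in mdx against 585 and 572 in wild type. Klf4, a factor linked to cell cycle exit, had a region with 134 and 198 in mdx against 235 and 230 in wild type, and Megf10, a satellite cell surface receptor, one with 232 and 221 in mdx against 298 and 292 in wild type.

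Of the 11, 4 had groups that overlapped. In Calcr the values were 587 and 473 in mdx against 442 and 474 in wild type. In Met, the receptor of hepatocyte growth factor, they were 276 and 209 in mdx against 236 and 230 in wild type. In Sdc4, a heparan sulfate proteoglycan, they were 470 and 357 in mdx against 385 and 469 in wild type. The last was the region nearest to Jag1, a Notch ligand, with 318 and 207 in mdx against 283 and 289 in wild type. At Klf6 the values were nearly equal, 383 and 386 in mdx against 387 and 392 in wild type.

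By nearest coding gene body rather than nearest start, the list took 27 members (3.3%, against 1.89%), 16 of them below 0, with a median of -0.06. Both mdx values were below in 13 and above in 5, where 25.9% and 26.8% of all tested regions were. The list had 0 called higher and 2 called lower (3.3% and 0.881% of all tested regions), the Rbpj and Nfia regions given above. Among the 13, a region 6.57 kb from Nfib, another gene of the nuclear factor I family, had 218 and 241 in mdx against 370 and 304 in wild type. Pax7 held 1 member, at chr4:139771072-139771860, with 630 and 504 in mdx against 498 and 610 in wild type, where the groups overlapped. Chodl, which encodes a lectin found in satellite cells, was the nearest coding gene of a region with 702 and 632 in mdx against 470 and 567 in wild type. Cxcr4, a chemokine receptor, was nearest to one with 799 and 812 in mdx against 682 and 586 in wild type, and Cd34, a surface marker of quiescence, to one with 395 and 266 in mdx against 228 and 254 in wild type. In these last 3 every mdx value was above every wild type value, at 53.0 kb to 118 kb from the gene. The other 2 of the 5 were far from Klf6, with 781 and 770 in mdx against 661 and 632 in wild type, and far from Jag1, with 325 and 320 in mdx against 314 and 303 in wild type.

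The other lists held few members. Genes of AP-1 and the early response were the nearest start of 4 members (0.49%, against 0.158% of unlinked regions), with a median of -0.44. In 3 of the 4 both mdx values were below both wild type values (25.9% of all tested regions), and 1 was called lower (0.881% of all tested regions). The 4 members were Atf3, given above, and regions by Fos, Nr4a1 and Cebpd. The region 12.2 kb from the start of Fos had 164 and 165 in mdx against 298 and 209 in wild type. The one by the orphan receptor Nr4a1 had 300 and 286 in mdx against 376 and 336 in wild type. The one by Cebpd had 304 and 246 in mdx against 280 and 304 in wild type, where the groups overlapped. By nearest coding body the list took 9 members (1.1%, against 0.376% of unlinked regions), 8 of them below 0. Among these 9, a region in the lncRNA Junos, whose nearest coding gene is Jun, had 571 and 658 in mdx against 898 and 708 in wild type. Genes of myogenic commitment and contraction were nearest to 0 members by either measure, against 18 of the 19660 unlinked regions by start. The list of NuRD chromatin and necroptosis genes, the subject of the series title, had 1 member, at the start of Gatad2a, a NuRD subunit, with 160 and 250 in mdx against 260 and 212 in wild type, where the groups overlapped.

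The threshold cut through a continuum. The members just inside it were at Dst, with 189 and 228 in mdx against 200 and 200 in wild type, at Phactr2, with 142 and 153 in mdx against 202 and 200 in wild type, and between genes on chromosome 2, with 135 and 148 in mdx against 206 and 200 in wild type. Just outside it were a region at Atp6v1h with 185 and 185 in mdx against 199 and 204 in wild type, one far from Rasa1 with 381 and 247 in mdx against 199 and 216 in wild type, and one far from Clint1 with 323 and 279 in mdx against 199 and 231 in wild type.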

How the data were processed

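ATAC-seq libraries of sorted quiescent satellite cells, 2 from mdx and 2 from wild type mice, were analysed. The submitters' processing notes name MACS2 2.1.0, STAR 2.5.3a, Trimmomatic 0.33, Picard 2.9.0, DESeq and DESeq2, and mm10 as the build, without roles; the Tn5 offset and duplicate handling were not stated. The authors deposited 1 table of 35019 regions with a value per library, used as a score: the values behave as reads multiplied by 1 factor per library and rounded, so no count model was run. The factors, 1.382 and 1.162 in mdx and 1.222 and 0.492 in wild type, were read from the whole numbers that the columns skip or favour, and give reads in regions, not library totals. Whether coordinates start at 0 or 1 is not stated. 0 columns belonged to other samples.

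The fit was limma 3.58.1 (R 4.3.3) with an intensity trend on log2(value + 1) with 1 term, the group, over the 33161 regions with at least 10 in at least 2 libraries. Gene starts came from RefSeq GRCm38.p6, with 27025 genes in the promoter table, 2031 whose strand the deposited table gave, and both ends taken for 5572 others. Motifs were meant for 200 bases around each centre, and were searched only in promoter windows because no genome sequence was used here. Regions named by rule are the 10 strongest, the 6 highest and the 6 lowest by the ratio of mean values (not by log2 difference) with groups that do not overlap, those nearest a satellite cell start, and the 3 on either side of the threshold. Some regions and 1 motif that these choices take are not reported here. The members and lists were chosen with earlier results of these data known. The replicate numbers are in the titles only, and the main fit did not pair the libraries by them. Deviations of same-numbered libraries correlated at -0.109, a value that cannot settle pairing because each group has only 2 libraries.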

Additional observations from a re-analysis of the deposited data

How the results depend on the processing

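The counts of called members, 14 higher and 13 lower, depended on the scaling and on the model. They were 35 and 20 with equal autosomal totals, 1 and 137 with the medians of unlinked regions set equal, and 102 and 13 after cyclic loess. With a pseudocount of 10 they were 23 and 25. With no filter on low values they were 2 and 2, beside 458 called in either direction over all regions. Over all tested regions, 1095 were called higher and 292 lower as deposited, and 1630 and 422 with equal totals. The counts were 1200 and 3432 with equal unlinked medians, and 1704 and 541 after loess. Thus 78.9% of calls were higher as deposited, 79.4% with equal totals, 25.9% with equal unlinked medians, a scaling that shifts the median of all tested regions to -0.35, and 75.9% after loess. The median log2 difference of the members was -0.35 with equal unlinked medians and 0.14 after loess, where that of all tested regions was -0.025. The share at 200 or more in both mdx libraries was 85.1% with equal totals and 74.4% with equal unlinked medians. A threshold of 100 took 2566 regions, with 63 called higher and 33 lower, beside 3.3% and 0.881% of all tested regions. Their median was 0.075, and 39.7% were at 200 or more in both mdx libraries. A threshold of 400 took 159, with 3 and 3 called, a median of -0.056 and 100.0%. Chosen on wild type replicate 1 or 2 alone, the shares were 73.0% and 81.5%, and the second draw moved the median to 0.084. The 702 members over 1 kb from a gene start or end had 14 called higher, 6 lower, a median of 0.046 and a share of 85.2%. Without each library in turn, limma called 0 members higher and 0 lower (22 to 75 and 25 to 85 at an unadjusted p under 0.05), the median ran from -0.044 to 0.051 and the share from 84.0% to 88.7%. The replicate block called 22 higher and 19 lower, and a crossed pairing, added after seeing the data, 92 and 88. For the pseudocount, the block and the crossed pairing no count over all regions is at hand, so nothing is read from their counts.

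The median of gene starts minus that of other members, -0.31, added after seeing the data, was -0.39 to -0.20 under every alternative run for it. Of 288 values of the 32 named regions under the alternatives, 242 moved by less than the spread between replicates, 46 moved further, and 0 changed sign in a called value. Regions that were not called did change sign. The log2 difference at Sertad2 went from -0.277 to 0.041 after cyclic loess, and that in Ddc from 0.186 to -0.159 with equal unlinked medians. The causes were not tested. Depth limits small differences: a value of 200 carries a counting error of 7.62% to 8.31% in every library but wild type replicate 2.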

Other observations

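Members rarely sat together. Within 10 kb of each other lay 10 pairs, 20 members (2.45%), and in 7 of the 10 both regions had log2 differences of one sign. The pair at Azin1 spanned 3.6 kb and summed to 836 and 918 scaled reads in mdx against 1340 and 1234 in wild type, and the pair at Rbpj to 565 and 726 in mdx against 1234 and 1058 in wild type. The pair nearest to Has2, the hyaluronan synthase gene, summed to 709 and 650 in mdx against 576 and 570 in wild type. The 817 members had 683 nearest coding genes, of which 24 had at least 3 members. In 15 of the 24 the members had both signs, in 7 all were below 0 and in 2 all were above. Those of Map3k7, a kinase gene of inflammatory signalling, ran from -0.24 to 0.71. Those of Ppargc1a, a coactivator of mitochondrial genes, had log2 differences of 0.18 to 0.55, while those of Igf1, a growth factor, had -0.64 to -0.02 and those of Rad51b, a DNA repair gene, -0.65 to -0.30.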
